A study of Caenorhabditis elegans with 13 samples.

Results

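UNC-45 is the chaperone that folds the myosin heads of Caenorhabditis elegans muscle, and the genes described here encode it, a chaperone partner and the proteins that mark it for destruction and pull it out of complexes. The members are unc-45, hsp-1, chn-1, ufd-2, cdc-48.1 and cdc-48.2, and every probe set of the array annotated to just one of these genes was taken. That gave 9 probe sets for 6 genes, of 22548 probe sets and 17118 genes with a probe set of their own. unc-45, chn-1 and cdc-48.2 are each read by 2 probe sets and the other members by 1. A probe set is a group of short oligonucleotides on the Affymetrix C. elegans array whose brightness, the intensity, is summarised to 1 value. Levels are given as log2 intensity, so that a difference of 1 is a doubling of intensity, and levels of different probe sets are not set against each other because each depends on its own oligonucleotides.

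UNC-45 carries a tetratricopeptide domain that holds Hsp70 and Hsp90 chaperones and a UCS domain that grips the myosin motor. Work in C. elegans showed that too little and too much UNC-45 both disturb the thick filaments of body wall muscle. CHN-1, the worm counterpart of the mammalian ligase CHIP, and UFD-2, a U-box protein that lengthens ubiquitin chains, together attach ubiquitin to UNC-45. CDC-48, an ATP-driven segregase known as p97 in mammals and encoded in the worm by the near-identical genes cdc-48.1 and cdc-48.2, works with them in that turnover. HSP-1 is the constitutive cytosolic Hsp70 of the worm.

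RNA came from 13 separate cell preparations in 4 groups. M0 (3 arrays) and M24 (3 arrays) are muscle cells from embryos of the strain PD4251, whose integrated transgene ccIs4251 puts green fluorescent protein under the myo-3 promoter, so that sorting on fluorescence collects mainly body wall muscle with a minority of other cells. M0 was sorted straight after the embryos were dissociated and M24 after 24 hr on coated culture dishes. R0 (3 arrays) and R24 (4 arrays) are the matching references, all viable cells of embryos of the wild-type strain N2 treated in the same ways. Muscle and reference thus differ in strain as well as in cell type, which cannot be told apart here, and the reference itself contains muscle cells. In such bulk samples a lower value can mean fewer cells that carry a transcript or less of it per cell, and these cannot be told apart either.

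Array medians lay between 49.2 and 58.0 intensity units, and the mean squared correlation of replicate arrays was 0.923 for M0, 0.937 for R0, 0.871 for M24 and 0.957 for R24. The spread of log2 values between the lowest and highest decile was narrowest in its group on M24 replicate 3 (3.91, against 4.50 and 4.86 on the other M24 arrays), M0 replicate 2 (3.53, against 4.05 and 4.13) and R0 replicate 2 (3.91, against 4.46 and 4.19). The sort carried the intended cells. All 16 body wall muscle markers were called raised at 0 hr and 14 of 16 at 24 hr, myo-3 by 2.80 ± 0.45 and 1.80 ± 0.30 on the log2 scale (SE). Their mean log2 level was 9.78 on M24 replicate 3 and 10.49 and 10.76 on the other M24 arrays. Markers of other cell types were called lowered in muscle at 0 hr and 24 hr for 9 and 7 of 12 neuronal, 9 and 8 of 11 epidermal, 5 and 1 of 8 pharyngeal, 0 and 1 of 10 intestinal and 1 and 1 of 8 germline or maternal genes. The neuronal mean was 6.57 to 7.05 in M0 and 8.61 to 8.84 in R0, and 6.74 to 7.35 in M24 and 8.07 to 9.02 in R24. No marker was at 0, and the part of these shifts in the members' values was not tested. The times were taken as normalised in separate runs, from the values their arrays share, and the chip lots on record differed between them. Levels were therefore compared only within a time.

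**Figure D1:**
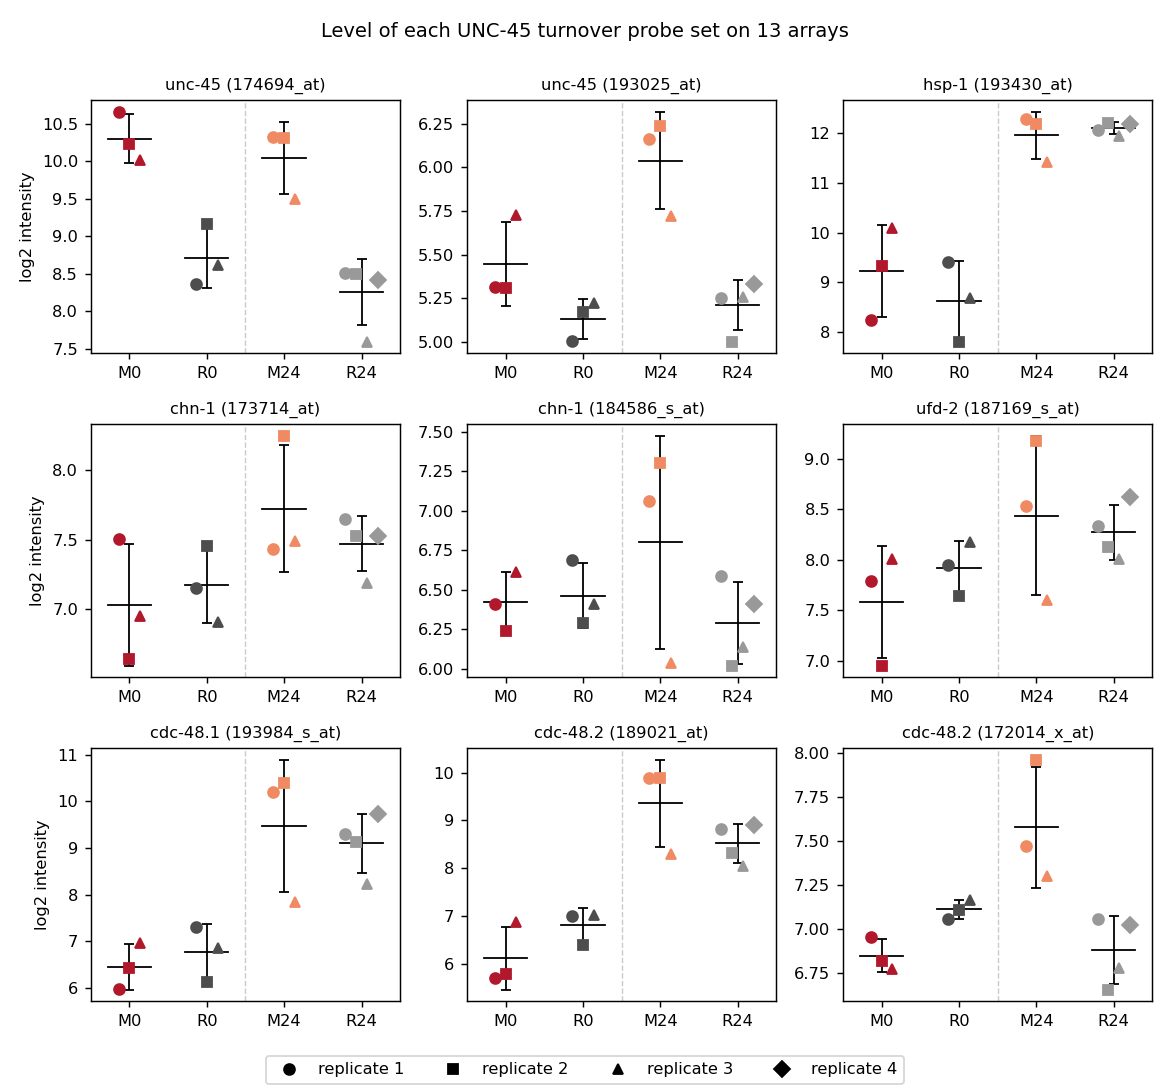
Log2 intensity (vertical axes, a scale of its own in each panel) of the 9 probe sets on all 13 arrays, with M0, R0, M24 and R24 from left to right. Symbols give the replicate number, horizontal bars the group mean and whiskers 1 SD. The unc-45 arrays of muscle lie wholly above those of the reference at both times, and M24 replicate 3 is the lowest M24 array in 8 of the 9 panels.

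The transcript of unc-45 was the one member raised in freshly sorted muscle. On its brighter probe set, 174694_at, the M0 arrays read 10.66, 10.23 and 10.02 and the R0 arrays 8.36, 9.16 and 8.62, all in log2 intensity. Every M0 array was thus above every R0 array. The means were 10.30 ± 0.33 in M0 and 8.71 ± 0.41 in R0 (SD, n = 3 each). The log2 fold change was 1.59 ± 0.25 (SE, 95% interval 1.01 to 2.16), a 3.01-fold higher intensity, with an adjusted p of 0.00341 in limma. Of all probe sets, 3.81% were called raised and 7.91% lowered at 0 hr, a call being a Benjamini-Hochberg adjusted p under 0.05 over the whole array together with a fold change of at least 1.7. The groups did not overlap, with muscle above, for 17.3% of all probe sets. R0 replicate 2, the array with the highest unc-45 reading of its group, had the lowest mean of body wall muscle markers in R0 (8.24, against 8.96 and 9.13). Arrays scanned on the same day gave differences of 2.30 (M0 and R0 replicate 1) and 1.61 (M0 replicate 2 and R0 replicate 3), and leaving out any 1 array gave 1.41 to 1.81.

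After 24 hr in culture unc-45 was again higher in muscle. The same probe set read 10.32, 10.31 and 9.50 on the M24 arrays and 8.51, 8.49, 7.59 and 8.42 on the R24 arrays. The groups did not overlap, and the lowest value of each group was its replicate 3. The means were 10.04 ± 0.47 in M24 (SD, n = 3) and 8.25 ± 0.44 in R24 (SD, n = 4). The log2 fold change of 1.79 ± 0.30 (SE, 95% interval 1.08 to 2.50) is a 3.46-fold higher intensity, with an adjusted p of 0.0142, where 2.26% of all probe sets were called raised and 5.93% lowered. Muscle lay wholly above the reference for 16.5% of all probe sets. No scan day at 24 hr held both groups, and with scan day as a random block (R24 replicate 4, which has no scan record, as a block of its own) the value was 1.76 ± 0.44 with an adjusted p of 0.0917. Without M24 replicate 1 it was 1.65 with an adjusted p of 0.0682, so both settings end the call while the direction stays.

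The other unc-45 probe set, 193025_at, is dim, with readings close to the median of the arrays. It read 5.31, 5.31 and 5.72 in M0 and 5.003, 5.17 and 5.22 in R0. The M0 arrays were all above the R0 arrays, as in 17.3% of all probe sets, and by less than on the brighter probe set. The difference of 0.32 ± 0.19 (SE, 95% interval -0.10 to 0.74) did not pass the test (adjusted p = 0.334). At 24 hr the readings were 6.16, 6.23 and 5.72 in M24 and 5.25, 5.001, 5.26 and 5.33 in R24. Muscle was again wholly above, as in 16.5% of all probe sets. The log2 fold change was 0.83 ± 0.16 (SE, 95% interval 0.45 to 1.21), or 1.78-fold, with an adjusted p of 0.0223. This call lies close to the fold minimum of 1.7. It was lost without M24 replicate 1 (0.77, adjusted p = 0.0931), M24 replicate 2 (0.73, 0.0491, under the fold minimum), R24 replicate 2 (0.76, 0.0724), R24 replicate 3 (0.84, 0.0530) or R24 replicate 4 (0.87, 0.0516). It was also lost with scan day as a random block (0.80, adjusted p = 0.0951). Both probe sets of the gene thus had muscle above reference at both times. The dim one had smaller values, no call at 0 hr and a less certain call at 24 hr.

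hsp-1, the constitutive Hsp70, was not called at either time. Its probe set, 193430_at, read 8.25, 9.33 and 10.09 in M0 and 9.40, 7.80 and 8.67 in R0. Both groups spread widely and overlapped, and the difference was 0.60 ± 0.50 (SE, 95% interval -0.52 to 1.72, adjusted p = 0.484). The pairs of arrays scanned on the same day differed in sign, with muscle minus reference at -1.16 (M0 and R0 replicate 1) and 0.66 (M0 replicate 2 and R0 replicate 3), and the fit with scan day as a block, to which only these 4 arrays contribute a difference, gave -0.25 ± 0.39. After culture the arrays were far tighter: 12.28, 12.19 and 11.42 in M24 and 12.07, 12.22, 11.95 and 12.18 in R24. M24 replicate 3 was the lowest of all 7 and the other M24 arrays lay among or just above the R24 arrays. The difference of -0.14 ± 0.22 (SE, 95% interval -0.65 to 0.37, adjusted p = 0.683) became 0.13 without M24 replicate 3. The intervals leave room for changes of either sign, by more than 3-fold upward at 0 hr, and so do not show equal levels.

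**Figure D2:**
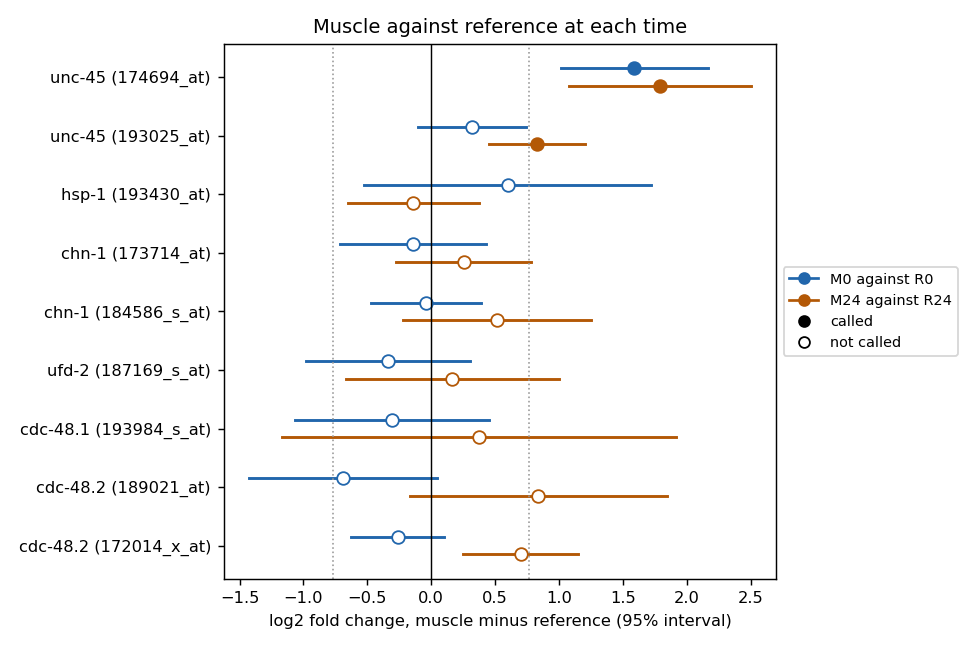
Log2 fold change of muscle minus reference (horizontal axis) for each of the 9 probe sets, M0 against R0 in blue above M24 against R24 in orange. Points are estimates, lines 95% intervals, filled points calls, and dotted lines mark the 1.7-fold minimum. The 3 filled points all belong to unc-45, and the cdc-48.2 points lie left of 0 at 0 hr and right of 0 at 24 hr.

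Neither ligase gene was called in muscle at either time. For chn-1, the CHIP counterpart, probe set 173714_at read 7.51, 6.64 and 6.95 in M0 and 7.16, 7.46 and 6.91 in R0, with a difference of -0.14 ± 0.25 (SE, 95% interval -0.71 to 0.43, adjusted p = 0.751). The groups overlapped, and the sign turned without M0 replicate 2 (0.05) and in the same-day pair of M0 and R0 replicate 1 (0.35). In the other same-day pair, M0 replicate 2 and R0 replicate 3, muscle was below reference. At 24 hr it read 7.43, 8.25 and 7.49 in M24 and 7.65, 7.52, 7.19 and 7.52 in R24, where M24 replicate 2 stood above and the rest mixed. The difference was 0.25 ± 0.23 (SE, 95% interval -0.28 to 0.78, adjusted p = 0.468).

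The other chn-1 probe set, 184586_s_at, gave 6.41, 6.24 and 6.61 in M0 and 6.69, 6.29 and 6.41 in R0. The difference was -0.04 ± 0.19 (SE, 95% interval -0.47 to 0.39, adjusted p = 0.904), and 0.06 after quantile normalisation. In culture it read 7.06, 7.30 and 6.04 in M24 and 6.59, 6.02, 6.14 and 6.41 in R24. M24 replicates 1 and 2 were above every R24 array, while M24 replicate 3 was near the bottom of the R24 range. The difference of 0.51 ± 0.31 (SE, 95% interval -0.22 to 1.25) had an adjusted p of 0.301, and 0.89 with an adjusted p of 0.0250 without M24 replicate 3. The call for this probe set therefore depends on that 1 array, while the gene's other probe set was not called without it.

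ufd-2, the chain-lengthening U-box ligase, read 7.79, 6.95 and 8.003 in M0 and 7.95, 7.64 and 8.17 in R0 on 187169_s_at. The groups overlapped, with M0 replicate 2 the lowest array. The difference was -0.34 ± 0.28 (SE, 95% interval -0.98 to 0.30, adjusted p = 0.488), and within scan days it was -0.15 (M0 and R0 replicate 1) and -1.22 (M0 replicate 2 and R0 replicate 3). At 24 hr ufd-2 read 8.53, 9.17 and 7.60 in M24 and 8.33, 8.13, 8.002 and 8.62 in R24. The M24 arrays enclosed the R24 arrays on both sides. The difference was 0.17 ± 0.36 (SE, 95% interval -0.67 to 1.00, adjusted p = 0.769), or -0.20 without M24 replicate 2 and 0.58 without M24 replicate 3.

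The segregase genes were not called at either time, although some calls for both genes depended on the setting. Their products are nearly the same protein, and probe sets whose names end in _s_at or _x_at can bind transcripts of similar sequence, so signal may be shared between cdc-48.1 and cdc-48.2. cdc-48.1 read 5.97, 6.43 and 6.95 in M0 and 7.31, 6.12 and 6.85 in R0 on 193984_s_at. The groups overlapped and the difference was -0.31 ± 0.34 (SE, 95% interval -1.07 to 0.45, adjusted p = 0.595). Both same-day pairs had muscle below reference, with muscle minus reference at -1.34 (M0 and R0 replicate 1) and -0.42 (M0 replicate 2 and R0 replicate 3). The fit with scan day as a block, which rests on these pairs alone, gave -0.88 ± 0.26 (adjusted p = 0.0593). In culture cdc-48.1 read 10.19, 10.39 and 7.84 in M24 and 9.30, 9.14, 8.24 and 9.74 in R24. M24 replicates 1 and 2 were above every R24 array and M24 replicate 3 below all of them. The difference was 0.37 ± 0.66 (SE, 95% interval -1.17 to 1.91, adjusted p = 0.720). Leaving out replicate 3 of both groups, a setting chosen after the data were seen, gave 0.90 with an adjusted p of 0.0476.

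For cdc-48.2 the probe set 189021_at read 5.69, 5.78 and 6.88 in M0 and 6.99, 6.40 and 7.03 in R0. M0 replicates 1 and 2 were below every R0 array, and M0 replicate 3 lay among them. The difference of -0.69 ± 0.33 (SE, 95% interval -1.43 to 0.05) did not pass the test (adjusted p = 0.235). With scan day as a block it was -1.27 ± 0.20 with an adjusted p of 0.00459. That fit rests on the same-day pairs alone, at -1.30 and -1.25. M0 replicate 3 and R0 replicate 2, each alone on its scan day, add no difference to it. Without M0 replicate 3 the value was -1.07 with an adjusted p of 0.0334. All these settings set aside M0 replicate 3, the M0 array that lay among the R0 arrays, and are not separate support. At 24 hr the readings were 9.88, 9.89 and 8.30 in M24 and 8.82, 8.32, 8.04 and 8.90 in R24, so that M24 replicates 1 and 2 were above the R24 arrays and M24 replicate 3 was among the lower ones. The difference was 0.84 ± 0.43 (SE, 95% interval -0.17 to 1.85, adjusted p = 0.231), and 1.37 with an adjusted p of 0.0184 without M24 replicate 3. Leaving out R24 replicate 3 as well gave 1.21 with an adjusted p of 0.0209.

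The probe set 172014_x_at of cdc-48.2 varied less. It read 6.95, 6.82 and 6.77 in M0 and 7.06, 7.11 and 7.17 in R0, the M0 arrays all below the R0 arrays, as in 14.7% of all probe sets. The difference was nevertheless small, -0.26 ± 0.16 (SE, 95% interval -0.63 to 0.10, adjusted p = 0.354). In culture it read 7.47, 7.96 and 7.30 in M24 and 7.05, 6.65, 6.78 and 7.02 in R24, with every M24 array above every R24 array. The difference was 0.70 ± 0.19 (SE, 95% interval 0.25 to 1.15), which missed the test (adjusted p = 0.0616) and was called without M24 replicate 3 (0.84, adjusted p = 0.0309) and after quantile normalisation (0.88, adjusted p = 0.00629). Both cdc-48.2 probe sets thus had negative values at 0 hr and positive values at 24 hr, none of them called with all arrays, values as deposited and no block or array weights.

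Counted together, 1 of the 9 member probe sets was called at 0 hr, where 11.7% of all probe sets were called in either direction. At 24 hr 2 of 9 were called, against 8.19% of all. Leaving out M24 replicate 1 gave 0 calls and leaving out M24 replicate 3 gave 5, the added ones being both cdc-48.2 probe sets and chn-1 184586_s_at. The groups did not overlap for 3 of 9 probe sets at each time, where 32% of all probe sets did so at 0 hr and 29% at 24 hr. The members' median log2 fold change was -0.14 at 0 hr and 0.51 at 24 hr, and that of all probe sets was 0.10 and 0.09. Outside unc-45 the share of calls was therefore 0 at both times, in a set of genes too few to compare with the background.

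Whether muscle enrichment differed between the times was tested as the 24 hr difference minus the 0 hr difference. No member was called in limma (0 of 9, with 2 of 9 at an unadjusted p under 0.05), where 1.93% of all probe sets were called. unc-45 differed by 0.20 ± 0.42 (SE, adjusted p = 0.921) on 174694_at and by 0.51 ± 0.24 (adjusted p = 0.402) on 193025_at. The largest values were those of cdc-48.2, at 1.53 ± 0.59 (adjusted p = 0.268) on 189021_at and 0.96 ± 0.24 (adjusted p = 0.0725) on 172014_x_at. Both were called without M24 replicate 3, at 2.06 (adjusted p = 0.0334) and 1.10 (adjusted p = 0.0267). The remaining members ranged between -0.74 ± 0.61 for hsp-1 (adjusted p = 0.724) and 0.68 ± 0.81 for cdc-48.1 (adjusted p = 0.840). Time, chip lot and normalisation run cannot be told apart in this contrast.

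Differences within each array set unc-45 against chn-1, ufd-2 and hsp-1, and cdc-48.2 against cdc-48.1. That made 8 differences over the times, all from the brighter probe sets. Those with unc-45 contain the unc-45 change already described and are not separate support for it. The mean of unc-45 minus chn-1 over the M24 arrays exceeded that over the R24 arrays by 1.54, and that of unc-45 minus ufd-2 by 1.63, without overlap in either case. For both, the exact two-sided permutation test gave p = 0.0286, the smallest possible with 3 against 4 arrays, or 0.0762 when adjusted over the 8 differences. For unc-45 minus hsp-1 the excess of M24 over R24 was 1.93, with the same p-values. At 0 hr the M0 minus R0 values were 1.73 against chn-1 and 1.93 against ufd-2, also without overlap. Their exact p was 0.1, the smallest that 3 against 3 arrays allow, or 0.16 when adjusted over the 8 differences. Against hsp-1 the value was 0.99 with overlapping arrays (exact p = 0.5). The difference cdc-48.2 minus cdc-48.1 shifted by -0.38 at 0 hr (exact p = 0.3) and 0.47 at 24 hr (exact p = 0.229), so these paralogs were not shown to move apart.

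How the members varied together was described by Pearson correlation over the 13 arrays, after each time's mean was subtracted. The points share their group, their normalisation run and the quality of each array, so the values are a description without a test. The unc-45 probe sets correlated at 0.81. cdc-48.1 and cdc-48.2 (189021_at) correlated at 0.86, and ufd-2 with them at 0.78 and 0.79. unc-45 (174694_at) correlated at 0.09 with ufd-2, 0.05 with hsp-1 and 0.19 with cdc-48.1, at 0.21 and 0.50 with the cdc-48.2 probe sets 189021_at and 172014_x_at, and at 0.35 and 0.47 with the chn-1 probe sets 173714_at and 184586_s_at. The dim unc-45 probe set, 193025_at, reached 0.72 with 172014_x_at, 0.71 with 184586_s_at and 0.59 with 189021_at. M24 replicate 3 was the lowest M24 array for every member probe set except chn-1 173714_at, and that array's spread of values was the narrowest in its group.

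Genes of the same processes were read by the brightest probe set of each gene. Among the 7 myosin heavy chain genes, the clients of UNC-45 and their relatives, 2 were raised and 2 lowered at 0 hr, and 2 raised and 1 lowered at 24 hr, with medians of -0.18 and -0.31. Over all genes, 3.95% were called raised and 8.27% lowered at 0 hr, and 2.43% raised and 6% lowered at 24 hr. The body wall myosins led. unc-54, the major body wall heavy chain, was higher by 2.20 ± 0.41 (adjusted p = 0.00715) in M0 and 2.09 ± 0.41 (adjusted p = 0.0236) in M24. The 24 hr call of unc-54 was lost when any 1 array but M24 replicate 3 was left out (1.72 to 2.26 without those 6). myo-3, the minor heavy chain that starts thick filaments, was higher by 2.80 ± 0.45 (adjusted p = 0.00333) in M0 and 1.80 ± 0.30 (adjusted p = 0.0133) in M24. Its 24 hr call was not kept throughout either, the adjusted p reaching 0.0557 with 1 array left out. myo-1, a pharyngeal heavy chain, was lower by -1.89 ± 0.30 in M0 (adjusted p = 0.00332). The dimmer probe set of myo-1 gave only -0.31 ± 0.19 there and was not called (adjusted p = 0.350). nmy-1, a non-muscle myosin, was lower by -1.08 ± 0.29 in M0 (adjusted p = 0.0379), a call lost under 5 of the 6 settings that left out 1 array, and by -1.58 ± 0.23 in M24 (adjusted p = 0.00782).

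With all arrays, the Hsp90 and Hsp70 genes were almost all uncalled. Of 19 measured genes of the Hsp90 and Hsp70 machinery, 0 were called at 0 hr in limma, with 5 at an unadjusted p under 0.05, and 1 was lowered at 24 hr. At 0 hr unc-23 (0.68, adjusted p = 0.0365) and hsp-110 (-0.74, adjusted p = 0.0432) missed only the 1.7-fold minimum, as did hip-1 at 24 hr (0.60, adjusted p = 0.0460). The medians of the 19 genes were 0.07 and 0.12, close to those of all genes (0.10 at both times). hsp-90, the Hsp90 of the worm, stood at 0.06 ± 0.20 in M0 against R0 (adjusted p = 0.873; -0.22 after quantile normalisation) and -0.18 ± 0.11 in M24 against R24 (adjusted p = 0.289). The lowered gene was hsp-4, an Hsp70 of the endoplasmic reticulum, at -1.40 ± 0.21 (adjusted p = 0.00927). These counts depended on single arrays. Leaving out 1 array gave 0 to 5 of the 19 genes raised at 24 hr, and 0 to 1 raised and 0 to 1 lowered at 0 hr.

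The cytosolic chaperonin, a folding chamber for actin and tubulin, and its feeder prefoldin gave a different picture at 0 hr. Over all genes at that time the median was 0.10 and 3.95% were called raised. All 14 chaperonin and prefoldin genes had positive values, 0.23 to 1.02 with a median of 0.50, and 4 were raised. They were the chaperonin subunits cct-1 (0.87 ± 0.21, adjusted p = 0.0266), cct-2 (1.00 ± 0.24, adjusted p = 0.0252), cct-6 (0.93 ± 0.20, adjusted p = 0.0151) and cct-7 (1.02 ± 0.25, adjusted p = 0.0286). pfd-4 (0.72, adjusted p = 0.0270) and cct-4 (0.66, adjusted p = 0.0482) missed only the 1.7-fold minimum. Dimmer probe sets of cct-2 (1.28, adjusted p = 0.0818), cct-6 (1.04, 0.0820) and cct-7 (1.07, 0.0877) were positive but not called. Those of cct-1 were split, at 1.19 (adjusted p = 0.0153, called) and 1.18 (0.0611, not called). The dimmer probe set of cct-4 was called (1.62, adjusted p = 0.00347). The 4 calls on the brightest probe sets were fragile. All were lost without R0 replicate 3 or M0 replicate 3 and with scan day as a block, which gave 0.61 to 0.77 for these subunits. At 24 hr 13 of 14 values were positive, with a median of 0.21. With all arrays 0 of 14 were called in limma, and 3 had an unadjusted p under 0.05. Of these, cct-4 (0.43, adjusted p = 0.0440) missed only the fold minimum. Leaving out 1 array gave 0 to 2 of the 14 raised at 24 hr.

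Few genes of the downstream machinery of turnover were called. Of 12 measured cofactors and relatives of CDC-48, 0 were called at 0 hr (2 at an unadjusted p under 0.05) with a median of -0.01. At 24 hr the median was 0.38 and 1 was raised, ubxn-1, which encodes a UBX-domain cofactor, at 0.98 ± 0.23 (adjusted p = 0.0413). The ubxn-1 call was lost when any 1 array except M24 replicate 3 was left out (0.81 to 1.08). Over these fits 0 to 3 of the 12 genes were called raised at 24 hr. Of the ubiquitin, E1, E2 and further U-box genes, 6 of the 19 listed have a probe set of their own, and the others were not analysed here. None of these 6 was called at either time (1 at an unadjusted p under 0.05 at each), with medians of -0.24 and -0.25.

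**Figure D3:**
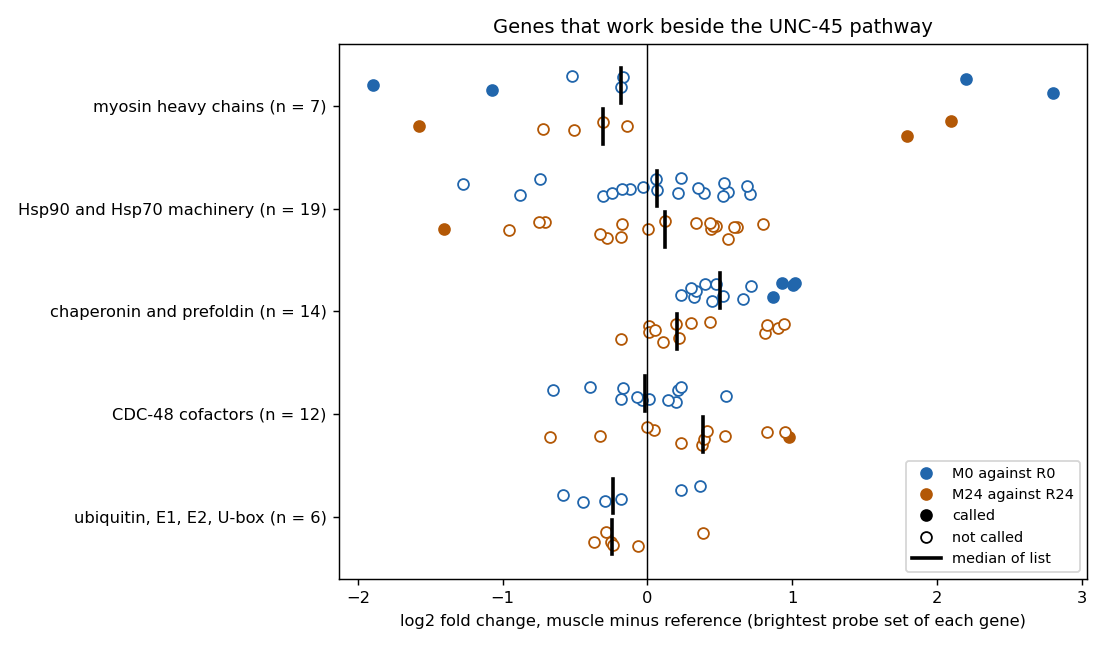
Log2 fold change of muscle minus reference (horizontal axis) for each gene of the 5 lists, read by its brightest probe set, M0 against R0 in blue above M24 against R24 in orange. Filled points are calls and black bars list medians. unc-54 and myo-3 stand to the right of every other gene at both times. The chaperonin and prefoldin points all lie right of 0 at 0 hr, as do 13 of 14 at 24 hr.

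The genes whose profile was most like that of each member were found by the correlation of brightest probe sets over the 13 arrays, each time's mean subtracted. For unc-45 the 5 closest were ace-1, an acetylcholinesterase (r = 0.979), T13H5.1 (r = 0.972), deb-1, the vinculin of muscle attachment sites (r = 0.967), W08A12.2 (r = 0.954) and unc-82, a kinase needed for thick filament order (r = 0.950). All 5 were called raised at both times, by 1.15 to 1.69 in M0 and 0.98 to 2.18 in M24, so these profiles share the contrast of muscle with reference. The deb-1 call at 24 hr was lost when any 1 array but M24 replicate 3 was left out (0.83 to 1.07). That of ace-1 was not kept throughout either, its adjusted p reaching 0.0511 with 1 array left out.

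**Figure D4:**
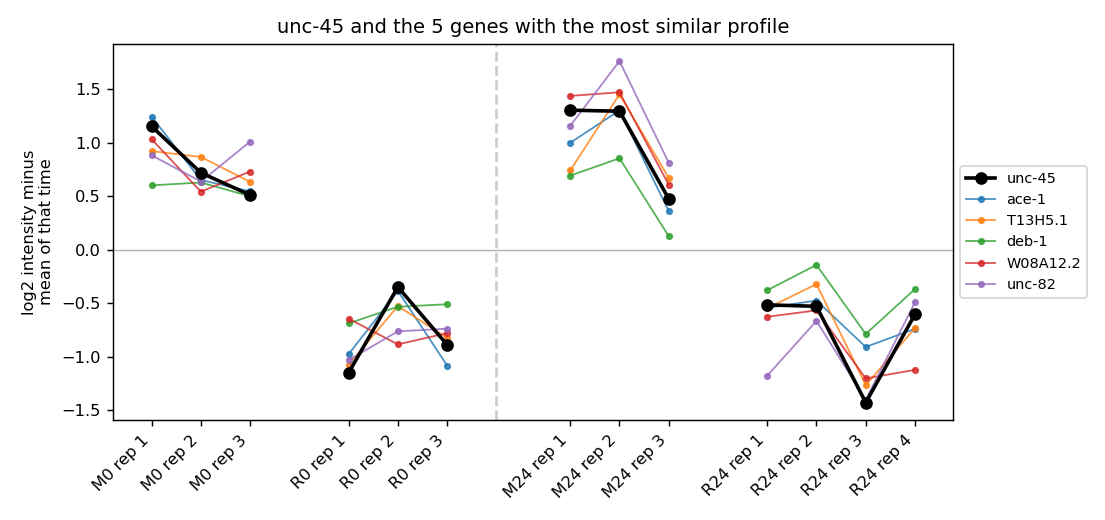
Log2 intensity minus the mean of that time (vertical axis) on each of the 13 arrays (horizontal axis) for unc-45 in black and the 5 genes most like it in colour. All 6 lines lie above 0 on every muscle array and below 0 on every reference array.

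The other members kept different company, and none of their 3 closest genes was called at either time. For hsp-1 these were atp-1 (r = 0.918) and atp-2 (r = 0.904), subunits of the mitochondrial ATP synthase, and the innexin gene inx-7 (r = 0.910). chn-1 was closest to wht-3 (r = 0.930), stl-1 (r = 0.919) and ZK470.2 (r = 0.916). ufd-2 was closest to the aminopeptidase gene pam-1 (r = 0.947), mboa-6 (r = 0.925) and the proteasome subunit gene rpn-3 (r = 0.919). cdc-48.1 was closest to glp-4 (r = 0.946), prdh-1 (r = 0.938) and dpf-5 (r = 0.936), and cdc-48.2 to the proteasome subunit gene rpn-6.1 (r = 0.942), emc-1 (r = 0.916) and hrde-4 (r = 0.911). None of the 6 members was among the genes closest to another member.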

How the data were processed

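Per the labels, each array took biotin-labelled product made by the authors from 100 ng of total RNA, after 2 amplification rounds. The deposited values are probe-set intensity on a linear scale from robust multiarray analysis (RMA, version not given in the sources used here), which were log2-transformed without a pseudocount. Pairs of arrays shared 55 to 344 identical intensities at 0 hr and 563 to 1410 at 24 hr, but 0 or 1 across times, so the times were taken as separate runs. Deposited scanner settings (other text) gave scan day and chip lot for 12 arrays, and R24 replicate 4 has none.

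M0 was compared with R0 and M24 with R24, each alone, and the difference of these differences over 13 arrays, in limma 3.58.1 (R 4.3.3, statmod 1.5.0 for random blocks), two-sided, adjusted over 22548 probe sets. The limma step was tested on simulated data. Probe sets follow the platform annotation, where 20766 name 1 gene, 887 several and 895 none. Figures used Python 3.11.15 and matplotlib 3.10.9. At 0 hr the deviations of same-numbered arrays from their group means correlated at r = 0.22, 0.32 and 0.15. Those of differently numbered arrays ran from -0.40 to 0.27. Pairing was therefore not established, and a replicate block was used only as an alternative fit. Named genes are the members, myo-3, hsp-90, up to 3 called genes per direction of each list (4 for the chaperonin) and the genes most like each member. The members and lists were chosen with earlier results of these data known. The value of each array was compared under other blocks, normalisations, filters, thresholds and with arrays left out. No sequence is shown, since none was analysed here.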

Additional observations from a re-analysis of the deposited data

Results flagged for a closer look

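Among the 9 probe sets, 1 reading of the R24 group lay far from the rest. unc-45 (174694_at) read 7.59 on R24 replicate 3 and 8.42 to 8.51 on the other 3 R24 arrays, so the gap to its neighbour was 0.903 of the group's whole range, above Dixon's critical value of 0.829 for 4 values. Chance gives a gap above that critical value in about 1 of 20 groups, and 9 were screened here. Without that array the unc-45 difference of M24 against R24 was 1.57.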

How the results depend on the processing

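unc-45 (174694_at) kept its direction within each time under every setting run. With 1 array left out its value was 1.41 to 1.81 at 0 hr and 1.57 to 2.07 at 24 hr, and the difference between the times was -0.019 to 0.48, below 0 without R0 replicate 2 and without R24 replicate 3. Within 1 scan day at 0 hr it was 2.30 for 174694_at (M0 and R0 replicate 1) and 0.086 for 193025_at (M0 replicate 2 and R0 replicate 3). With scan day as a random block the 24 hr values of 1.76 and 0.80 (193025_at) were not called. 193025_at at 24 hr was 0.73 to 1.00 with arrays left out, and missed the call with a replicate block (0.87) and with a pseudocount of 16 (0.63). In each case the cause was not tested.

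Signs that turned all belonged to values that were not called. At 0 hr scan day as a block gave 0.040 for chn-1 (173714_at), -0.25 for hsp-1 and -0.15 for hsp-90, quantile normalisation gave 0.062 for chn-1 (184586_s_at) and -0.22 for hsp-90, and array weights gave 0.084 and 0.048 for chn-1 (173714_at and 184586_s_at). The same-day pair of M0 and R0 replicate 1 gave 0.35 for chn-1 (173714_at). Array weights gave 0.094 for hsp-1 at 24 hr and -0.053 for the difference between times of chn-1 (173714_at). With 1 array left out, the 0 hr values spanned -0.38 to 0.055 for chn-1 (173714_at), -0.14 to 0.071 for chn-1 (184586_s_at) and -0.061 to 0.18 for hsp-90. The 24 hr values spanned -0.0096 to 0.40 for chn-1 (173714_at), -0.20 to 0.58 for ufd-2, -0.30 to 0.13 for hsp-1 and -0.089 to 1.19 for cdc-48.1. Without replicate 3 of M24 and of R24, hsp-1 was 0.080.

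Counts over all probe sets moved more. With 1 array left out, 620 to 907 probe sets were called raised and 1281 to 1901 lowered at 0 hr, with 0 to 1 member lowered (cdc-48.2 189021_at, without M0 replicate 3). At 24 hr 194 (without M24 replicate 1) to 1230 (without M24 replicate 3) were raised and 584 to 1479 lowered, with 0 to 5 members raised. For the difference between times 92 to 420 were raised and 114 to 302 lowered, with 0 to 2 members raised. Without replicate 3 of M24 and of R24, 1116 were raised at 24 hr with 4 members, and 317 between times with 1 member. Scan day as a block at 0 hr called 1 member lowered, cdc-48.2 (189021_at), in a fit to which M0 replicate 3 adds no difference. Scan day as a random block at 24 hr called 188 raised and 430 lowered, with 0 members. Quantile normalisation called 831 raised at 24 hr, and 1 member between times. Array weights called 1445 raised and 2396 lowered at 24 hr with 4 members, and 1033 and 1207 between times with 2 members. Without the fold minimum 806 were raised at 24 hr. At an adjusted p under 0.01 the counts raised and lowered were 519 and 1001 at 0 hr, 147 and 473 at 24 hr with 0 members, and 45 and 53 between times. The pseudocount of 16 left 1 member raised at 24 hr. Testing only probe sets brighter than the median also left 1, but there the dim 193025_at was filtered out before the test.

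Pairing arrays by replicate number as a block changed no member call at 0 hr (unc-45 1.59, adjusted p = 0.00738, limma). At 24 hr the deviations of same-numbered arrays correlated at r = 0.21, -0.04 and 0.38, and pairing was not established either. The replicate block, which drops R24 replicate 4, called 251 raised and 755 lowered with 1 member raised, and 78 and 94 between times.

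The number of arrays, 3 or 4 a group, limits the precision. The 95% intervals of the members within a time were narrowest for cdc-48.2 (172014_x_at) at 0 hr, -0.63 to 0.10, and widest for cdc-48.1 at 24 hr, -1.17 to 1.91.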
